A study of Brassica oleracea with 15 samples.

Results

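The shaded flank of blue-light-stimulated hypocotyls was compared with the bottom flank of gravity-stimulated hypocotyls, the sides on which a bending stem elongates more. The members were all arrays titled as shaded (3) and as bottom (3), 6 of the 15 arrays in the series. The material was the hypocotyl, the stem below the cotyledons, of wild type Brassica oleracea seedlings grown in the dark and 3 days old. The blue light group had 2 h of unidirectional blue light and the gravity group 2 h of gravitropic stimulation. The remaining arrays held the lit flank (3), the top flank (3) and flanks after a mock stimulation (3, called the control). A sample was a pool of flank pieces about 1 cm long from about 100 seedlings, cut from the outer tissue, so the cell types within a flank were mixed. In such pools fewer cells of a type and less RNA per cell cannot be told apart. Groups were taken from the sample titles. The extraction notes of the lit arrays name shaded flanks, and those of the bottom arrays name top and shaded flanks.

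Shoots bend toward light (phototropism) and away from the pull of gravity (gravitropism) by growing faster on one flank. Phototropin receptors in the plasma membrane sense directional blue light, whereas gravity is sensed by the settling of starch-filled plastids in the cell layer around the vascular tissue. Both routes are held to move auxin toward the flank that then elongates, where loosening enzymes act on the cell wall. Light also starts the conversion of the plastids of dark-grown tissue into chloroplasts, through phytochromes and cryptochromes as well as phototropins.

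RNA was hybridised to Arabidopsis ATH1 arrays, and each value is the Affymetrix signal of a probe set, an intensity on a linear scale. Gene names and roles below are those of the Arabidopsis gene a probe set was designed for. Related Brassica gene copies can hybridise to the same probe set, and signals of different genes were not compared. Probe sets with a mean log2 signal of at least 8.28 over the 15 arrays, the median of all probe sets, were tested, which left 11371. Correlations of log2 signal ran from 0.825 to 0.854 among the shaded arrays, from 0.829 to 0.848 among the bottom arrays and from 0.772 to 0.855 between them. No vascular or epidermal marker on the lists used here had a tested probe set, so the tissue named in the labels was not checked by markers. The log2 ratio of 3′ to 5′ control signals was averaged over GAPDH, actin and ubiquitin, to compare transcript length between arrays. It was -0.29 ± 0.18 (SD, n = 3) in shaded and -0.14 ± 0.11 in bottom arrays (difference -0.15, two-sided exact permutation test, p = 0.3, where 0.1 is the smallest possible). GAPDH was negative and actin positive on every array, so the level of this mean does not itself give a transcript length. For GAPDH alone the groups did not overlap, with -3.39, -3.69 and -3.47 in shaded and -3.08, -2.98 and -3.21 in bottom arrays, whereas for actin and ubiquitin they did. The part of this in the results was not tested. The sources used here give no processing dates, so a batch that held only one stimulation and the stimulation itself cannot be told apart.

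Few of the transcripts tested were called different between the flanks on the growing side. With 3 arrays a group, this does not show that few differed. Higher in the shaded flank were the plastid genes rpl14 and rpl16 and, close to the threshold, the nuclear photosynthesis genes SBPASE, RCA and HCF101, whose calls ended under most of the alternatives tried. The phytochrome-signalling gene AFR and the aminoacyl-tRNA synthetase gene AT4G26870 were higher in the bottom flank. No call was given by the tested auxin-responsive genes (2 of 49 listed), expansins (6 of 18) and xyloglucan-modifying enzymes (6 of 23). With 0.29% of all probe sets called, so few members do not show that these groups are alike in both flanks. In all, 33 of 11371 probe sets (0.29%) passed an adjusted p of 0.05 by limma, 17 (0.149%) higher in the shaded and 16 (0.141%) higher in the bottom flank. The shaded and bottom arrays did not overlap for any of the 33, as for 15.4% of all probe sets tested (7.76% with the shaded arrays higher and 7.7% with the bottom arrays higher). An unadjusted p under 0.05 was reached by 1238 (10.9%). The count depended on single arrays: it was 18 without shaded replicate 1, 21 without shaded replicate 2, 9 without shaded replicate 3, 32 without bottom replicate 1, 9 without bottom replicate 2 and 12 without bottom replicate 3. With only the 6 compared arrays in the fit it was 4, and with no filter on dim probe sets 18. A single gene symbol was carried by 18 of the 33, of which 11 were higher and 7 lower in the shaded flank.

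**Figure D1:**
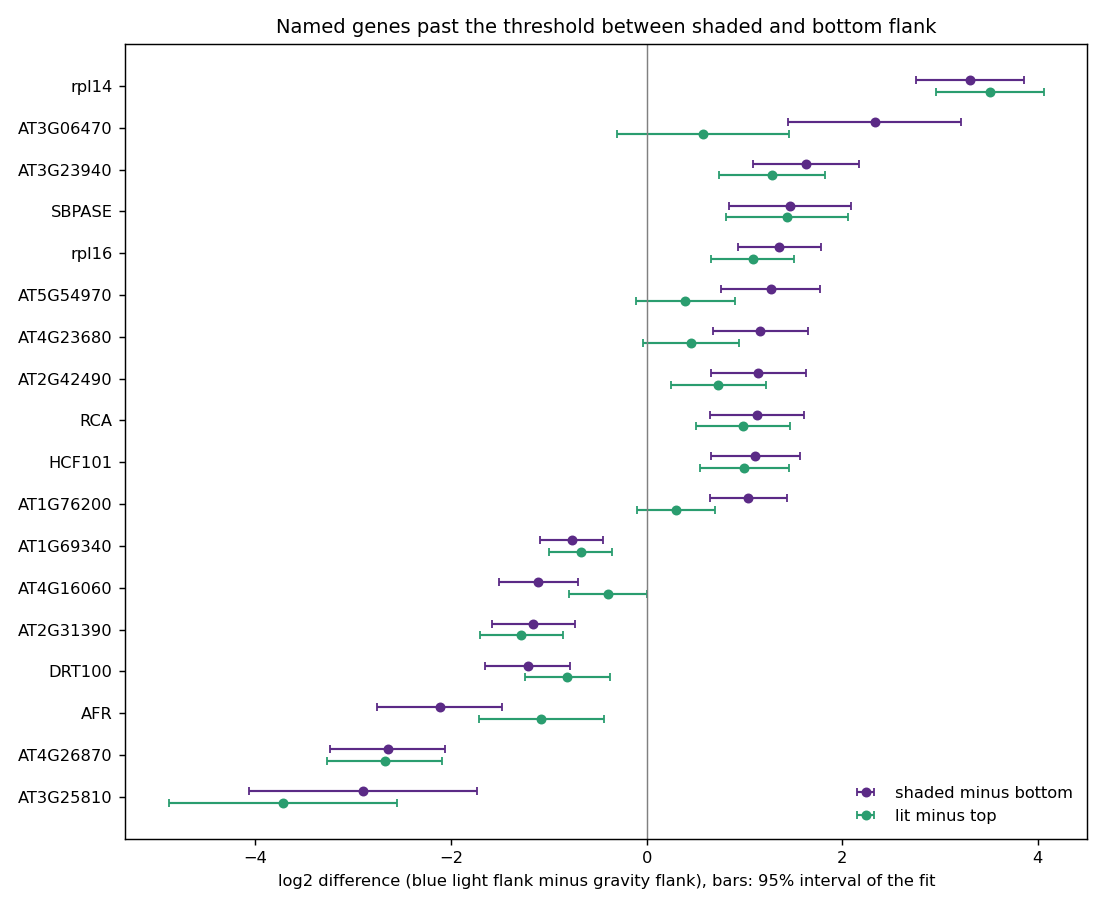
Log2 difference of signal (x axis) for the 18 named genes past the threshold between the shaded and the bottom flank, with the lit minus top difference of the same gene beside it; points are limma estimates from 3 arrays a group and bars are 95% intervals. The genes run from rpl14 at 3.3 to AT3G25810 at -2.90, and every lit minus top estimate lies on the same side of 0.

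Rpl14 encodes a protein of the large subunit of the plastid ribosome and is itself a plastid gene. Its signal was 7419.6, 7813 and 10168 in the shaded arrays and 826.5, 945.9 and 783.5 in the bottom arrays. The groups lay far apart, and the difference was 9.87-fold (log2 difference 3.3, SE 0.26, 95% interval 2.75 to 3.85, adjusted p = 7.16e-06, limma). Control arrays, at 17471, 16427 and 13864, were higher than every array of both flanks. The shaded flank differed from the control by -0.92 on the log2 scale (adjusted p = 0.304) and the bottom flank fell by 4.22 (adjusted p = 1.67e-07).

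Rpl16, the neighbour of rpl14 in the plastid genome, also encodes a protein of the large ribosomal subunit. It measured 4410.0, 5279 and 6736 in the shaded and 1840.5, 2150.0 and 2373 in the bottom arrays, again without overlap (log2 difference 1.35, SE 0.20, adjusted p = 0.00765). Its control arrays, at 6633, 7301 and 8227, overlapped the shaded arrays and lay above all bottom arrays. The bottom flank fell by 1.80 against the control (adjusted p = 0.000357). Without shaded replicate 3 the call of rpl16 ended narrowly (adjusted p = 0.0503).

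The other plastid genes did not share this pattern. The other 12 tested plastid-encoded ribosomal protein genes had log2 differences from -0.76 to 0.15, and their lowest adjusted p was 0.425. Over all 67 tested plastid-encoded genes, 56 had a lower estimate in the shaded flank and 2, rpl14 and rpl16, were called. Their median was -0.38, against 0.01 over all probe sets tested, and 51.2% of all tested were positive. With quantile normalization 55 of the 67 were negative, and with centred arrays 56. The lit minus top estimates had the same tendency, with 51 of the 67 negative and a median of -0.32. Genes measured on the same arrays are not independent, so these counts of signs are not counts of separate observations. The sources used here do not state how cDNA was primed, and the part of priming in organelle signals was not tested. Among the photosystem and cytochrome b6f genes, 26 of 28 were negative between shaded and bottom flank (median -0.47) and 0 were called. PsaI, a small photosystem I subunit, had -1.11 (adjusted p = 0.136), ycf3, a photosystem I assembly factor, -0.92 (adjusted p = 0.191) and petG, a cytochrome b6f subunit, -0.80 (adjusted p = 0.198).

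The remaining organelle lists had the same sign of median. For the NDH complex, a plastid counterpart of respiratory complex I, 8 of 9 genes were negative (median -0.35), with ndhI at -0.66 and ndhE at -0.62. For the plastid ATP synthase, rbcL and other genes the median was -0.40, with 11 of 16 negative. There accD, a subunit of the enzyme that starts fatty acid synthesis, had -0.94 (adjusted p = 0.194) and atpH, an ATP synthase subunit, -0.73 (adjusted p = 0.135). Of 7 mitochondrion-encoded genes 5 were negative (median -0.44), with cox2, a cytochrome oxidase subunit, at -0.94 (adjusted p = 0.283) and nad5, of respiratory complex I, at -0.87 (adjusted p = 0.369). None of these genes passed the threshold over all probe sets.

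**Figure D2:**
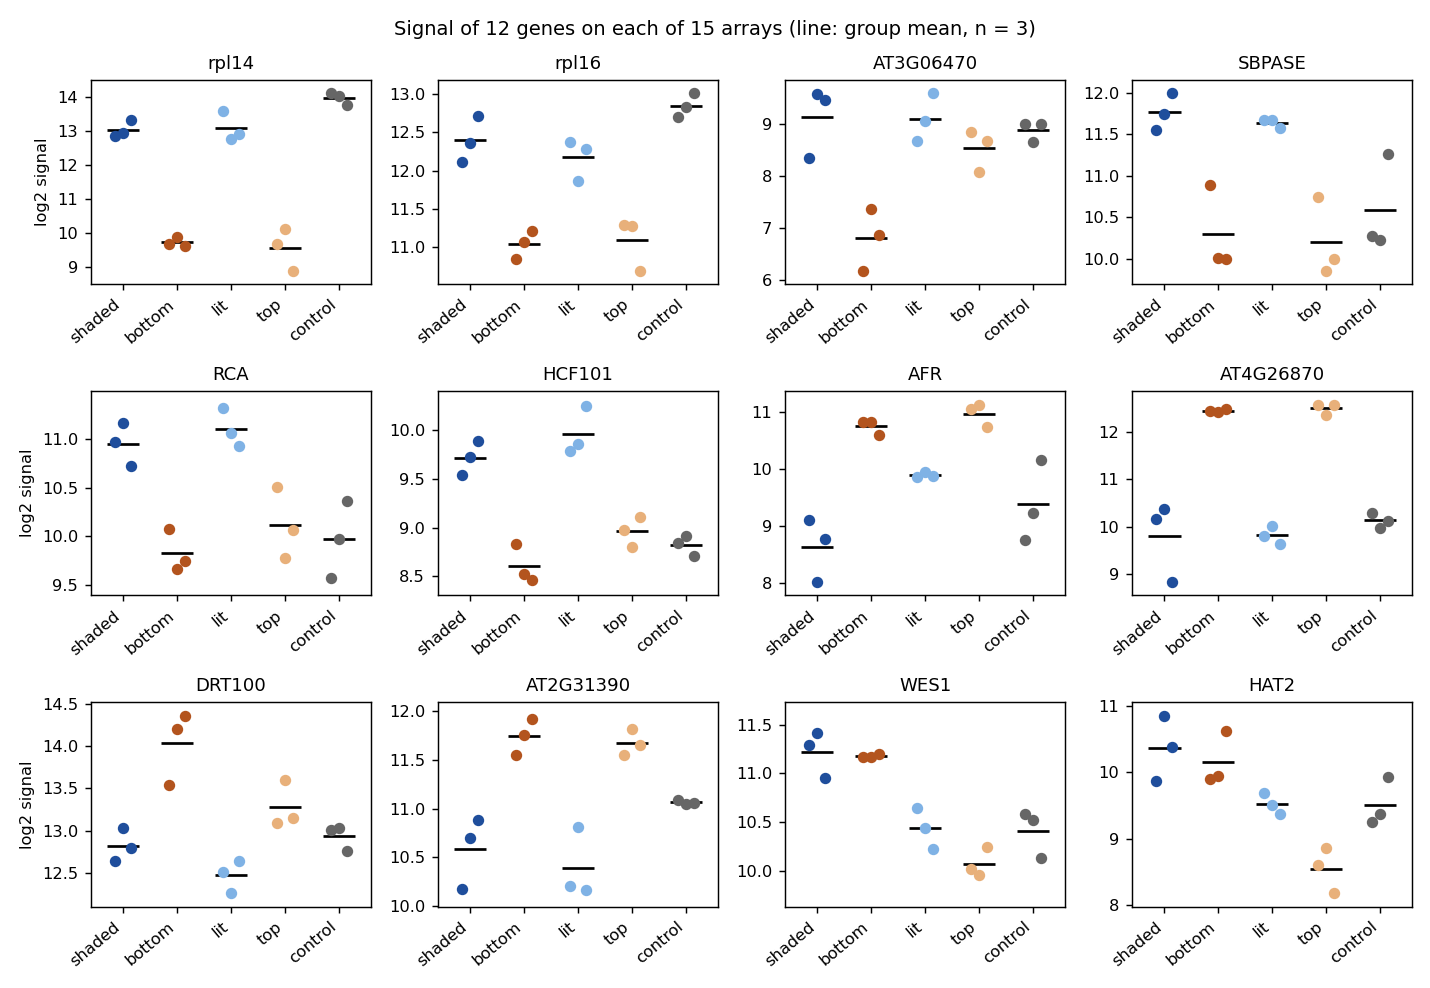
Log2 signal (y axis) of 12 genes on each of the 15 arrays, by group; points are arrays and lines are group means (n = 3). Rpl14, rpl16, AT3G06470, SBPASE, RCA and HCF101 are higher on every shaded than every bottom array, AFR, AT4G26870, DRT100 and AT2G31390 are lower, and WES1 and HAT2 overlap.

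Nuclear genes for photosynthesis were the list with the most calls. Of 11 tested members, out of 56 listed, 3 rose in the shaded relative to the bottom flank (0.149% of all tested) and 0 fell (0.141%). All 11 estimates were positive, with a median of 0.75. Shaded arrays lay above all bottom arrays for 7 of the 11, the 3 called ones among them, against 7.76% of all tested. The list was chosen with earlier results of these data known. Its members were measured on the same arrays and are not independent, so these counts describe the list and test nothing. The lit minus top estimates were much alike, with 10 of the 11 positive, a median of 0.53 and 0 called. The list covers the Calvin cycle, light harvesting and both photosystems.

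SBPASE, sedoheptulose-bisphosphatase of the Calvin cycle, measured 3001, 3434 and 4066 in the shaded and 1902, 1032.5 and 1019 in the bottom arrays. Bottom replicate 1 stood nearest the shaded flank, but the groups did not overlap (log2 difference 1.46, SE 0.29, adjusted p = 0.0459). RCA, Rubisco activase, which frees Rubisco of inhibitory sugar phosphates, measured 2004, 2295 and 1691 against 1076, 808.9 and 858.4 (log2 difference 1.13, SE 0.23, adjusted p = 0.0466). HCF101, an iron-sulphur cluster protein needed to assemble photosystem I, measured 743.7, 844.4 and 947.1 against 454.2, 368.1 and 352.4 (log2 difference 1.11, SE 0.21, adjusted p = 0.0367). For these genes the shaded mean lay above the control mean and the bottom mean close to it. Control replicate 3 raised the control mean of SBPASE, whose control arrays were at 1243, 1200 and 2452. That replicate was also the highest for RCA, at 761.8, 1006 and 1315, but the lowest for HCF101, at 459.4, 482.1 and 417.8. Log2 differences from the control were 1.17 in the shaded and -0.29 in the bottom flank for SBPASE, 0.98 and -0.14 for RCA, and 0.89 and -0.22 for HCF101, none past the threshold (lowest adjusted p = 0.239). The remaining 8 members had log2 differences from 0.05 to 1.08 and none passed, PRK, phosphoribulokinase of the Calvin cycle, included (1.08, adjusted p = 0.114).

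These 3 calls sat close to the threshold. With arrays centred on their medians 1 of them, HCF101, held. None did without shaded replicate 1, 2 or 3 or bottom replicate 2 or 3, where their adjusted p values ran from 0.0739 to 0.189, and 2 did without bottom replicate 1. With no filter and with array weights 0 held, and with the replicate number as a block 0 held (adjusted p = 0.06 for SBPASE, 0.0728 for RCA and 0.0675 for HCF101). Of the 4 tested genes of chlorophyll synthesis, all had a positive estimate (median 0.24) and 0 were called. GSA1, which makes the precursor aminolevulinate, had 0.38 (adjusted p = 0.568), HEMB1, an aminolevulinate dehydratase, 0.40 (adjusted p = 0.693) and PORB, a light-dependent protochlorophyllide reductase, 0.10 (adjusted p = 0.91).

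A further 6 named genes were higher in the shaded flank, among them genes for enzymes of lipid and amino acid metabolism. AT3G06470, of the GNS1/SUR4 family of fatty acid elongase components, measured 327.3, 765.2 and 705.6 in the shaded and 72.2, 165.3 and 116.6 in the bottom arrays. It was 5.03-fold higher (log2 difference 2.33, SE 0.42, adjusted p = 0.0248) without overlap, although its bottom mean log2 of 6.80 was below the filter value and it was tested through the other groups. AT3G23940, a dihydroxy-acid dehydratase of branched-chain amino acid synthesis, measured 1629, 1672 and 2522 against 615.2, 440.5 and 863.1 (log2 difference 1.63, SE 0.26, adjusted p = 0.0122). Both genes were close to the control in the shaded flank, at log2 differences of 0.24 and -0.29, and lower than the control in the bottom flank, at -2.09 (adjusted p = 0.04) and -1.91 (adjusted p = 0.00216).

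The other 4 differed by about the same amount as one another. AT5G54970 measured 1177, 655.8 and 1092 in the shaded and 323.9, 470.2 and 396.3 in the bottom arrays (log2 difference 1.27, adjusted p = 0.0334). AT4G23680, of the major latex protein-like family, measured 1488, 965.2 and 1019.5 against 485.0, 601.5 and 446.6 (log2 difference 1.16, adjusted p = 0.0459). AT2G42490, a copper amine oxidase, measured 1257, 1576 and 2469 against 840.6, 640.0 and 849.3 (log2 difference 1.14, adjusted p = 0.0466). None of these groups overlapped. AT1G76200 was the smallest of the named genes higher in the shaded flank, at 4959, 4442 and 5558 against 2606, 1807 and 2991 (log2 difference 1.04, adjusted p = 0.0255).

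AFR, an F-box protein with kelch repeats that acts in phytochrome A signalling, was the one tested gene of the light signalling list and was lower in the shaded flank. Its signal was 550.7, 261.7 and 439.8 in the shaded and 1809, 1826 and 1558 in the bottom arrays. No shaded array came near a bottom array, and the difference was 4.33-fold (log2 difference -2.12, SE 0.30, 95% interval -2.75 to -1.48, adjusted p = 0.00574). Control arrays, at 436.4, 602.0 and 1142, overlapped the shaded arrays and lay below all bottom arrays. Log2 differences from the control were -0.75 in the shaded (adjusted p = 0.592) and 1.37 in the bottom flank (adjusted p = 0.0605). GI, the clock gene GIGANTEA, differed by -0.09 on the log2 scale (adjusted p = 0.928) and DFR, dihydroflavonol reductase of anthocyanin synthesis, 0.39 (adjusted p = 0.585).

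AT4G26870 encodes a class II aminoacyl-tRNA synthetase, which loads an amino acid onto its tRNA. It measured 1150.2, 1337 and 458.7 in the shaded and 5536, 5465 and 5728 in the bottom arrays. Shaded replicate 3 was the lowest of the 6, and the groups were far apart (log2 difference -2.65, SE 0.28, 95% interval -3.24 to -2.06, adjusted p = 0.000163). The control, at 1259, 1004 and 1122, lay within the shaded range. The bottom flank stood 2.31 above the control on the log2 scale (adjusted p = 0.000791) and the shaded flank differed by -0.34 (adjusted p = 0.88).

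AT3G25810, of the terpene synthase family, measured 406.4, 91.5 and 76.6 in the shaded and 1206, 887.3 and 1104 in the bottom arrays. The log2 difference was -2.90 (SE 0.55, adjusted p = 0.0354). Its mean log2 signal was above the filter value only in the bottom and top flanks, and 7.15 in the shaded flank, so it was tested only through the flanks where it is high, and its calls are given as a description. With no filter the adjusted p was 0.0721. Shaded replicate 1 was the highest of its group but still under every bottom array. Without shaded replicate 2 or 3 the adjusted p was 0.105 or 0.128, and without bottom replicate 1, 2 or 3 it was 0.0706, 0.0983 or 0.145.

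The last 4 named genes were higher in the bottom flank by smaller amounts. DRT100, which encodes a leucine-rich repeat protein, measured 6357, 8378 and 7107 in the shaded and 11909, 18846 and 21092 in the bottom arrays (log2 difference -1.22, SE 0.21, adjusted p = 0.019). AT2G31390, a pfkB-type kinase of the fructokinase group, measured 1156, 1661 and 1891 against 3005, 3454 and 3881 (log2 difference -1.16, SE 0.20, adjusted p = 0.0201). Its tightly grouped control, at 2182, 2118 and 2131.5, fell between both flanks. AT4G16060 measured 617.7, 496.3 and 524.1 against 1095.0, 1224 and 1197 (log2 difference -1.11, adjusted p = 0.019). AT1G69340, of the appr-1-p processing enzyme family, had the smallest called difference of all, at 3093, 3846 and 4109 against 5749.5, 5816 and 7183.5 (log2 difference -0.77, adjusted p = 0.0459). Shaded and bottom arrays of all 4 genes were apart.

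Rpl14, AT4G26870 and AFR kept their calls under all 15 alternatives tried, with adjusted p values up to 0.000258, 0.0409 and 0.0419. The other 15 named genes lost theirs when only the 6 compared arrays were fitted. Leaving out an array ended 9 of the 18 calls for shaded replicate 1 (adjusted p of those lost, 0.0739 to 0.204), 9 for shaded replicate 2 (0.0629 to 0.142), 14 for shaded replicate 3 (0.0503 to 0.153), 7 for bottom replicate 1 (0.0507 to 0.0706), 13 for bottom replicate 2 (0.0589 to 0.169) and 12 for bottom replicate 3 (0.0998 to 0.189). None of the 18 changed direction in any alternative.

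Set beside the unstimulated flank, the called probe sets stood apart in the bottom more often than in the shaded flank. Of the 33, 17 were also called between bottom flank and control (49 of all tested, 0.431%) and 0 between shaded flank and control (1 of all tested, 0.00879%). The bottom mean was farther from the control mean than the shaded mean for 28 of the 33, against 55.4% of all tested. Both values use the same control arrays, and the bottom and shaded arrays are those that chose the 33, so no test was made of them. SBPASE, RCA and HCF101 were among the 5 with the shaded mean farther away.

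The lit and top flanks, the slower-growing sides, give the same pair of stimulations on other arrays, which entered the comparison above only through the filter on dim probe sets and the shared estimate of the spread. The labels describe the lit and shaded flanks as cut from the same seedlings, and likewise the top and bottom flanks, so these arrays are separate but their plants may not be. The lit minus top difference had the same sign for 32 of the 33 called probe sets, against 62.0% of all tested, and the exception was the unnamed 260356_at (-0.05). The lit and top arrays also did not overlap, with lit higher, for 13 of the 17 that were higher in the shaded flank (7.6% of all tested), and with top higher for 15 of the 16 that were higher in the bottom flank (7.81% of all tested). Over all tested probe sets the 2 differences had a Pearson correlation of 0.368 and a Spearman correlation of 0.333, across genes that are not independent. Between lit and top, 10 probe sets (0.0879%) were called, 4 higher (0.0352%) and 6 lower (0.0528%) in the lit flank. Called in both comparisons were 6, which is 18.2% of the 33 and 60% of the 10. AT3G25810 is counted among the 32, the 15, the 10 and these 6. It passed the filter only through the bottom and top flanks, so its agreement between the pairs of flanks was favoured by the filter. Without lit replicate 2 the count of 10 became 6, and without top replicate 2 it became 5. With quantile normalization it became 21, 12 higher and 9 lower in the lit flank against 4 and 6.

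**Figure D3:**
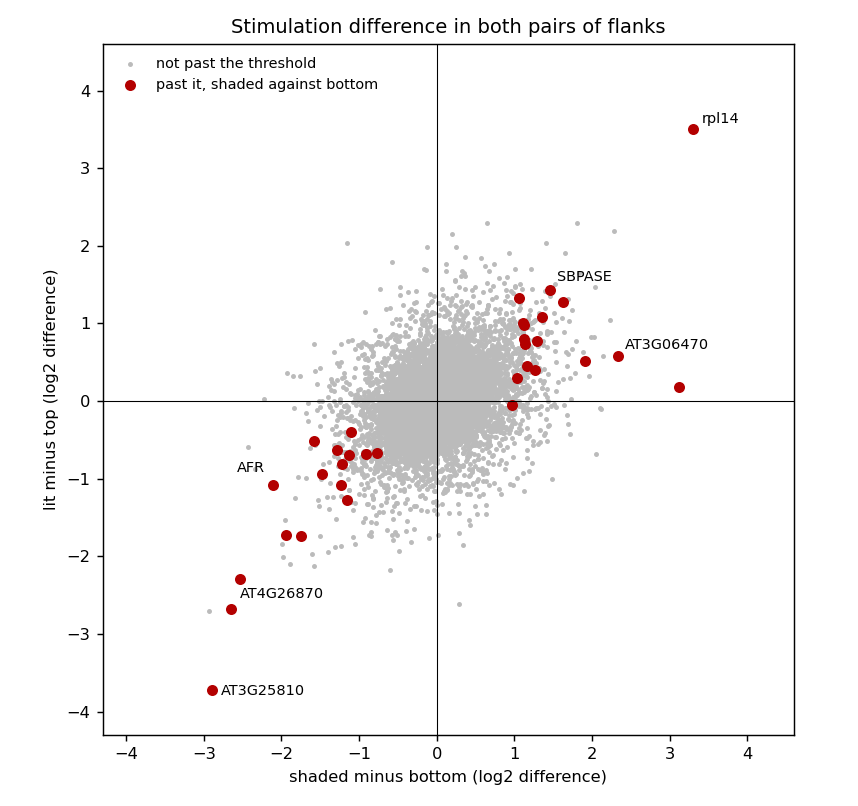
Log2 difference of signal between the shaded and bottom flank (x axis) and between the lit and top flank (y axis) for the 11371 tested probe sets; red points are the 33 past the threshold between shaded and bottom. Of the red points, 32 lie in the quadrants where both differences have the same sign.

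The named genes of both comparisons were rpl14, AT3G25810, AT4G26870 and AT2G31390. Rpl14 measured 12193, 6891 and 7647 in the lit and 821.8, 1112 and 477.7 in the top arrays (log2 difference 3.51, adjusted p = 2.89e-06). AT4G26870 measured 897.2, 1039.5 and 798.9 against 6116, 5262 and 6091 (log2 difference -2.68, adjusted p = 0.000205). AT2G31390 had -1.28 (adjusted p = 0.0144). In these genes the difference between blue light and gravity arrays was called on both sides of the stem. Batch and stimulation cannot be told apart in either pair of flanks. AT3G25810, tested only through the bottom and top flanks, had -3.72 (adjusted p = 0.0106).

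The difference was smaller in the lit and top flanks for 28 of the 33, which were chosen for their size between the shaded and bottom flank. For AFR the lit arrays, at 933.8, 990.2 and 940.2, stood above all shaded arrays, and the lit minus top difference was -1.08 (adjusted p = 0.217). For AT3G06470 it was 0.58 (adjusted p = 0.714), with top arrays at 462.1, 270.0 and 409.2 above all bottom arrays. AT1G76200 had 0.30 and AT5G54970 0.40 there. In other genes it came close to the shaded minus bottom difference, though it was not called. SBPASE had 1.43 (adjusted p = 0.0872, limma), RCA 0.98 (adjusted p = 0.1125), HCF101 1.00 (adjusted p = 0.0934) and rpl16 1.08 (adjusted p = 0.0504). The test of the difference between both differences found 0 of 11371 past the threshold by limma, and 383 (3.37%) at an unadjusted p under 0.05. Among those were 10 of the 33, AFR (-1.04, unadjusted p = 0.0271, adjusted p = 1) and AT3G06470 (1.75, unadjusted p = 0.0088, adjusted p = 1) included. That test treats the 12 arrays as independent, although flanks of the same seedlings may share a number. Deviations of shaded and lit arrays of the same number correlated at 0.125, 0.150 and 0.038 over probe sets. For bottom and top arrays the correlations were 0.060, 0.003 and -0.018. The test is also less precise, with an SE of 0.43 for AFR against 0.30 for shaded minus bottom. Whether the 33 differ more in the flanks that elongate is therefore not settled by it.

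The named genes with the smallest p in that test had estimates of opposite sign in the 2 pairs of flanks. Choosing genes by that test favours opposite signs, so the pattern is not a separate result. BAT1 had log2 differences of 1.12 between shaded and bottom and -1.16 between lit and top, AT5G51280 1.69 and -0.30, and AT1G67850 0.72 and -0.70. In the other direction AT1G47380 had -0.84 and 0.71, CML42, a calmodulin-like calcium sensor, -1.01 and 0.56, and AT4G22960 -0.56 and 0.64. The adjusted p was 1 for all 6. Without top replicate 1 the test called 1 probe set, which carries no single symbol here.

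The auxin-responsive genes were close to equal in the shaded and bottom flank. WES1 encodes a GH3 enzyme that joins auxin to amino acids and is induced by auxin. It measured 2507, 2721 and 1987 in the shaded and 2306.5, 2296 and 2343 in the bottom arrays, with the bottom values inside the shaded range (log2 difference 0.04, 95% interval -0.33 to 0.41, adjusted p = 0.955). HAT2, an auxin-induced homeodomain-leucine zipper gene, measured 941.4, 1853 and 1342 against 955.0, 990.4 and 1585 (log2 difference 0.21, 95% interval -0.38 to 0.81, adjusted p = 0.833). The intervals leave room for a difference of up to 0.41 and 0.81 on the log2 scale. Against the control WES1 had 0.81 in the shaded and 0.77 in the bottom flank, and HAT2 0.86 and 0.64, with no call (lowest adjusted p = 0.0723).

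Genes of auxin synthesis and transport were also near 0. YUC2 and YUC4, flavin monooxygenases of auxin synthesis, had log2 differences of 0.10 (95% interval -0.39 to 0.60) and 0.11 (-0.40 to 0.62). WAG2, a kinase that directs auxin efflux carriers, had -0.07 (-0.54 to 0.40). These 3 were the tested members of 37 listed, and WES1 and HAT2 those of 49 listed auxin-responsive genes. No listed gene of gravity sensing and starch, gibberellin or brassinosteroid had a tested probe set. Of the ethylene list, EIN3, a transcription factor of the response, had 0.10 (adjusted p = 0.919) and RTE1, a regulator of the receptor ETR1, -0.34 (adjusted p = 0.767).

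**Figure D4:**
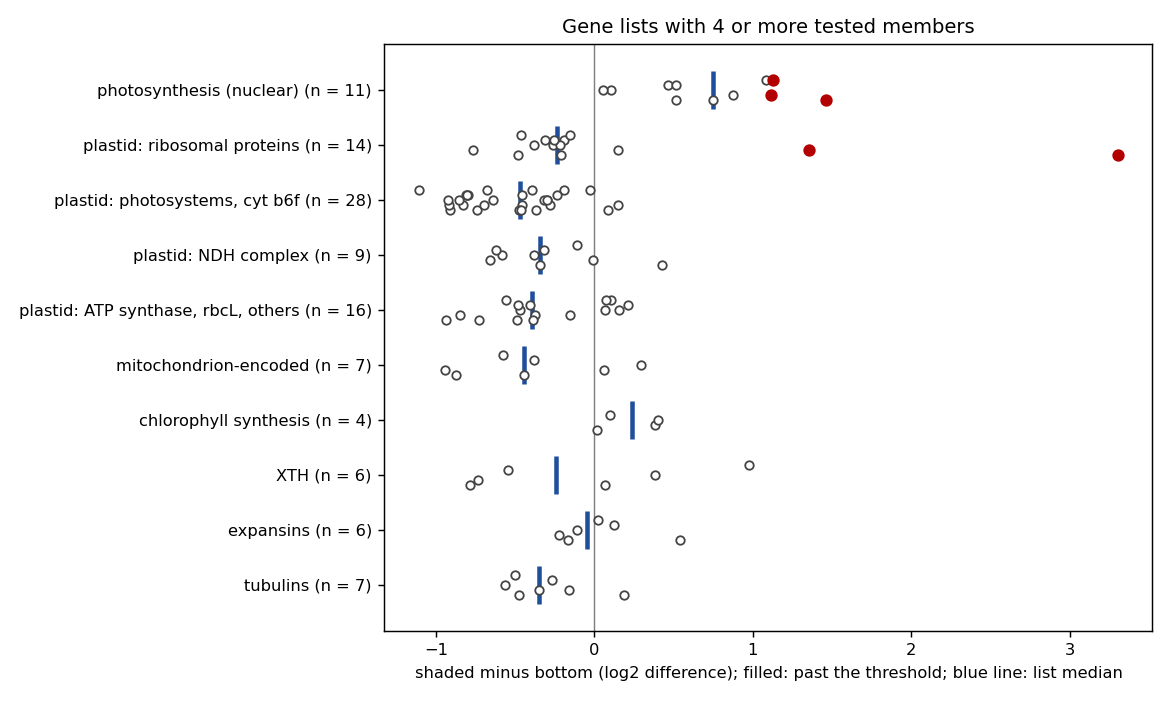
Log2 difference between the shaded and bottom flank (x axis) for each tested member of the lists with 4 or more of them (y axis, n members); filled red points passed the threshold and blue lines are list medians. Nuclear photosynthesis genes all lie above 0 with a median of 0.75, and plastid-encoded lists lie mostly below 0 apart from rpl14 and rpl16.

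The tested cell wall and cytoskeleton genes gave no call either, where 0.29% of all probe sets tested were called. They were 6 of 23 listed XTH genes, 6 of 18 expansins, 7 of 15 tubulins and 1 of 8 genes of cellulose synthesis. The 6 tested XTH genes, enzymes that cut and rejoin xyloglucan, were split 3 and 3 (median -0.24). XTH32 had 0.98 (95% interval 0.42 to 1.54, adjusted p = 0.158), with all shaded arrays above all bottom arrays, while XTH33 had -0.78 (-1.31 to -0.26, adjusted p = 0.228), with the arrays apart the other way, and XTH18 had -0.73 (adjusted p = 0.299). The 6 expansins, proteins that loosen walls without cutting them, ran from -0.22 to 0.54 (median -0.04), with EXPB3 at the top (adjusted p = 0.495). Of 7 tubulin genes, which build microtubules, 6 had lower estimates in the shaded flank (median -0.35), among them TUB1 at -0.57 (adjusted p = 0.436), TUB6 at -0.50 (adjusted p = 0.513) and TUB7 at -0.48 (adjusted p = 0.295). COB, which guides the orientation of cellulose, had -0.37 (adjusted p = 0.68). For the tubulins the shaded and bottom arrays overlapped in every case.

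The 15 called probe sets without a single gene symbol had log2 differences of 0.91 to 3.13 in size, 6 higher and 9 lower in the shaded flank. The largest, 263034_at, measured 2779, 1701 and 2494 in the shaded and 841.5, 72.1 and 291.0 in the bottom arrays (log2 difference 3.13, SE 0.58, adjusted p = 0.0311). Its bottom mean log2 of 8.025 was below the filter value, and it was tested through the other groups. Its lit minus top difference was 0.19. The smallest p among them was that of 252343_at, at 1488, 1484 and 1658 against 4716, 4927 and 4254 (log2 difference -1.58, SE 0.16, adjusted p = 0.000122), with control arrays at 1290.3, 1535 and 1459, next to the shaded flank. Both were picked out after their values were seen.

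At the filter on dim probe sets, AT1G33660 lay just inside with a mean log2 signal of 8.28 and a difference of -0.10, and AT4G17700 just outside with a difference of 0.78.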

How the data were processed

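The values analysed are the deposited Affymetrix signal intensities of 15 ATH1 arrays, computed by the authors with GCOS 3.0, per the submitters' processing notes, without detection calls here. The trimmed mean (lowest and highest 2% left out) was 500 on every array, so arrays had been scaled. Its settings are not given in the sources at hand. The 64 control probe sets were left out, 1 value at or below 0 was set to 0.4, and log2 was taken. Probe sets at or above the median mean log2 signal were kept. Hybridising Brassica RNA to Arabidopsis probes lowers some signals through mismatches.

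Of 22810 probe sets, 13513 carried 1 gene symbol in the array's annotation, 503 several, and 8794 were not listed there. Probe sets with several symbols were left unnamed.

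In limma 3.58.1 a model with 5 group means was fitted over the 15 arrays (R 4.3.3; eBayes with an intensity trend; 10 residual degrees of freedom), with Benjamini-Hochberg adjusted p over the 11371 probe sets, threshold 0.05. The fit was tested on simulated data. The design text calls the samples biological, in triplicate. P-values measure the spread between these pools, and 3 arrays a group limit the precision. Replicate numbers did not pair shaded with bottom samples (correlations of deviations -0.016, -0.003 and -0.028), and no array duplicated another.

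The members and lists were chosen with earlier results of these data known. Named were, among probe sets with 1 symbol, up to 15 called in each direction by size; up to 3 each way in lit against top and in the difference of differences, or the smallest p where none was called; from each list up to 4 called members or the 3 of smallest p; and WES1 and HAT2. Across 23 lists with 460 genes, 143 matched a symbol and 120 of these had a tested probe set; 4 matches to a different gene of the same symbol were dropped. Alternatives were quantile normalization, median centring, no filter, the brightest 30%, log2(signal + 32), no intensity trend, array weights, a replicate block, only the compared arrays, and each array left out.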

Additional observations from a re-analysis of the deposited data

How the results depend on the processing

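Between the shaded and bottom flank, 33 probe sets were called. The count was 18 with no filter on dim probe sets (7 higher, 11 lower), 11 with no intensity trend (6 and 5) and 4 with only the 6 compared arrays in the fit (1 and 3), and it ran from 9 to 32 when each array was left out in turn. It stayed within 1.5 times the main count with quantile normalization (37), median centring (27; 12 higher and 15 lower), the brightest 30% (42), log2(signal + 32) (35), array weights (22) and the replicate block (26, of which 23 were among the 33). The log2 estimates of the named genes were the same with and without the block, which changes only their errors. Between the lit and top flank the count of 10 became 21 with quantile normalization and 4 with no intensity trend, and ran from 5 to 13 when each array was left out. The difference of differences stayed at 0 calls, except for 1 without top replicate 1 (range 0 to 1). The 3′ to 5′ difference ran from -0.25 to -0.08 when each array was left out. The setting with no filter tests more probe sets, and the fit of 6 arrays has fewer arrays behind the spread. The cause of a changed count was not tested for any setting. Dim probe sets are not covered, and 4 called ones had a flank mean below the filter value.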
